A study of Mus musculus with 4 samples.

Results

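The glucose transporter (GLUT, gene symbol Slc2a) genes of fetal brown adipose tissue (BAT) are described here, with the exception of GLUT5. The members were taken by symbol from the table of gene counts, as a list of 9 genes, Slc2a1, Slc2a3, Slc2a4, Slc2a6, Slc2a8, Slc2a9, Slc2a10, Slc2a12 and Slc2a13, out of 12 Slc2a genes and 22298 genes listed in all. RNA-seq was performed on BAT of C57BL/6 fetuses (C57BL/6J in the study's methods) collected at the end of gestation and labelled as male. Both groups were collected on the same embryonic day, which the sample labels call the last day of gestation. The control fetuses came from dams given tap water, the fructose fetuses from dams given 20% (w/v) fructose in their water once a mating plug had been seen, and both groups were otherwise untreated and carried no transgene or deletion. Each group had 2 libraries, 4 in all, and the sources do not say how many fetuses or litters stand behind a library. The p-values therefore measure the spread between these libraries, which may be partly technical. The edgeR and DESeq2 tests used here pool part of this spread over all tested genes. A gene's p-value by these tests thus does not rest on its own libraries alone. The comparison asks whether the expression of glucose transporters in fetal brown fat differed after maternal fructose intake.

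Most GLUT proteins carry hexoses and related molecules across membranes down their gradient, without using energy. In fat and muscle, GLUT4 (Slc2a4) waits in vesicles inside the cell and moves to the surface when insulin signals, while GLUT1 (Slc2a1) sits at the surface and serves basal uptake. Brown fat is known for taking up large amounts of glucose when it is stimulated by cold or by insulin, and GLUT4 and GLUT1 are the transporters usually credited with it. The other members differ in place and cargo. GLUT8 (Slc2a8) is found mostly on inner membranes, GLUT9 (Slc2a9) carries urate, and HMIT (Slc2a13) carries myo-inositol together with protons.

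The counts on genes totalled 18542897 to 23645147 per library, and the limit that a count of 0 allows, 3 counts, was 0.127 to 0.162 CPM (the count scaled to a common library size), for counting error only. Counts on the Y-linked genes Uty, Kdm5d, Ddx3y and Eif2s3y summed to 422 and 390 in control libraries 1 and 2 and to 0 in each fructose library, so the fructose libraries do not match the label of male fetuses, and the sex of the fetuses cannot be told apart from the maternal diet in any comparison here. The brown fat markers Ucp1 and Cidea were abundant throughout, at 9606 to 12425 CPM and 3236 to 3343 CPM. The list of 10 brown adipocyte markers that holds them summed to 21699 to 25408 CPM. It also holds Pparg, Adipoq and Fabp4, which the study groups as common adipogenic genes. Other genes of the list were far lower, with Dio2 at 4.43 to 9.06 CPM, Ppargc1a at 6.91 to 17.9 CPM and Elovl3 at 19.9 to 50.5 CPM. Of 12888 genes tested with edgeR's quasi-likelihood test, 26.2% were called at a Benjamini-Hochberg adjusted p-value under 0.05, 15.5% higher and 10.7% lower in fructose (2001 and 1379 genes, or 2242 and 859 when scaled by library size only), and the groups did not overlap for 65.1%. The log2 fold change of these genes rose with transcript length (Spearman's rho 0.50 across genes, which are not independent replicates) and fell with GC content (rho -0.50). Values with both trends removed are therefore given beside the calls that they change. Mitochondrial genes took 5.89% and 6.49% of the counts in control and 10.8% and 11.2% in fructose, and the part of this difference in the results was not tested. Leaving mitochondrial and haemoglobin genes out of the library sizes changed no call of a member. The scaling factors were then computed anew, which largely takes such a change back. That fit therefore cannot show whether the mitochondrial difference matters for the members.

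The levels of the members spanned more than 3 orders of magnitude, and Slc2a4 stood far above the rest. For this comparison between genes, each level was divided by the length of the gene's exons (CPM per kb). Slc2a4 was at 134 CPM per kb on average over the 4 libraries, which was 9.08-fold above the next member, Slc2a8, at 14.8 CPM per kb. Slc2a1 followed at 5.51 CPM per kb, 2.68-fold below Slc2a8 and 4.79-fold above Slc2a3. The lowest library of each of these 3 leading genes lay above the highest library of the gene ranked after it. Slc2a4 ranked 406 among the 12884 tested genes of known length, whose median was 3.31 CPM per kb. Slc2a8 and Slc2a1 also lay above this median, and the other members lay below it.

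The next 4 members were at low levels. Slc2a3 was at 1.15 CPM per kb, Slc2a12 at 0.970 CPM per kb, Slc2a10 at 0.733 CPM per kb and Slc2a9 at 0.692 CPM per kb, and each overlapped its neighbour in this order, so that neighbours did not differ beyond the spread of the libraries. Farther apart in the order, Slc2a3 lay wholly above Slc2a10 and Slc2a9, and Slc2a12 wholly above Slc2a9. With the length of the longest annotated transcript in place of the exons, Slc2a9 and Slc2a10 changed places. Slc2a6 at 0.154 CPM per kb and Slc2a13 at 0.0840 CPM per kb were the lowest members. Their ranges overlapped each other, and Slc2a6 lay 4.50-fold below Slc2a9 without an overlap.

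**Figure D1:**
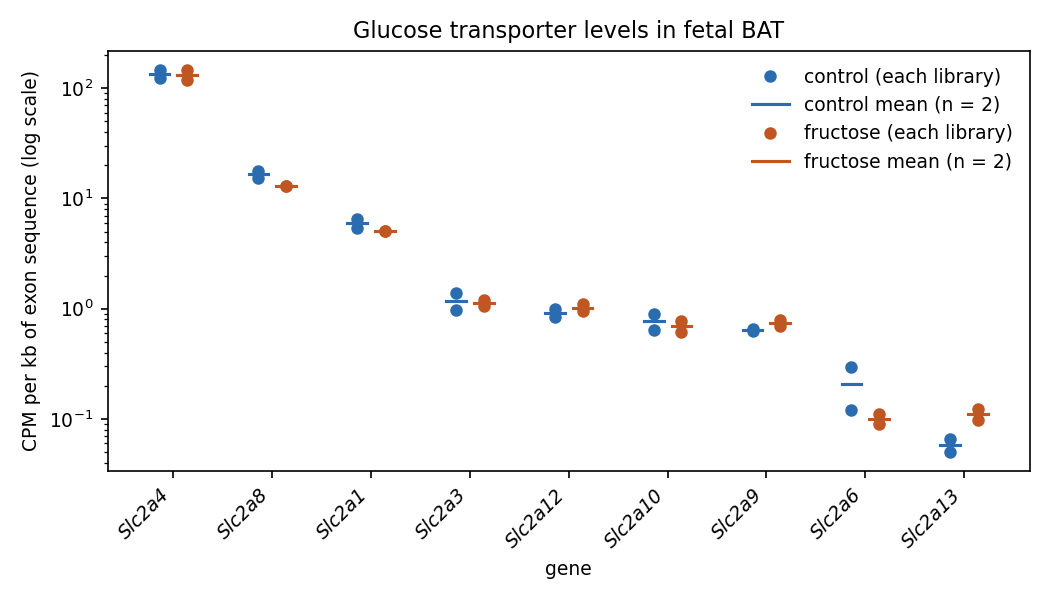
Level of each of the 9 transporter genes in CPM per kb of exon sequence, on a log axis, with a point for each library and a bar at the mean of the 2 libraries of a group. Slc2a4 lies between 119.8 and 147 CPM per kb in every library, and the lowest 2 genes lie under 0.3 CPM per kb.

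Slc2a4 encodes GLUT4, the insulin-responsive transporter, and lies on chromosome 11 from 69942539 to 69948188 on the minus strand (mm10). It had 8181 and 9160 counts in control libraries 1 and 2, and 11579 and 10204 counts in fructose libraries 1 and 2. Scaled to library size these were 432 and 508 CPM in control and 512 and 417 CPM in fructose. Control library 2 and fructose library 1 were high, control library 1 and fructose library 2 were low, and the groups overlapped. The mean was 469.8 ± 53.9 CPM (SD, n = 2 libraries) in control and 464 ± 67.5 CPM (SD, n = 2 libraries) in fructose. The log2 fold change was -0.02 with a 95% interval from -0.26 to 0.23 (standard error 0.11, adjusted p = 0.926 by edgeR's quasi-likelihood test). This interval spans 0.835-fold to 1.17-fold. With the length and GC trends removed the log2 fold change was 0.16 (adjusted p = 0.363 by edgeR's quasi-likelihood test), and its sign also turned when a library was left out, with 0.10 without control library 2 and 0.13 without fructose library 2.

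The study measured Glut4 in fetal BAT by qRT-PCR as well, with a primer pair that can be placed on the same gene. The primers are shown to state which part of the transcript that assay reads, and they are written 5′ to 3′ as ordered.
Glut4 forward: gtcctcctgcttggcttcttca
Glut4 reverse: actgggtttcacctcctgctct
Both primers of 22 bases matched exactly and span 129 bases of the transcript Slc2a4-201. The forward primer covers chr11:69943515-69943536 and the reverse primer chr11:69943408-69943429 (GRCm38), both wholly in coding sequence of exon 11, the last of the 11 exons. Of all annotated mouse transcripts, 2 held both primers, both of Slc2a4, and no transcript of another gene held either. The RNA-seq counts cover the whole gene, and the longest run of identical bases that Slc2a4 shares with another member is 29 bases, with Slc2a3. Among the 36 pairs of members this was the longest such run.

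Slc2a8 encodes GLUT8, a hexose transporter of inner membranes, and was the only member called by the test. It lies on chromosome 2 from 32972990 to 32982083 on the minus strand. It had 938 and 1022 counts in control, against 952 and 1019 in the more deeply sequenced fructose libraries. After scaling, its level was 49.5 and 56.7 CPM in control and 42.1 and 41.6 CPM in fructose. Both fructose libraries lay below both control libraries. The mean fell from 53.1 ± 5.07 CPM to 41.8 ± 0.350 CPM (SD, n = 2 libraries each), which is 1.27-fold lower. The log2 fold change was -0.34 (standard error 0.09, 95% interval -0.55 to -0.14, adjusted p = 0.0204 by edgeR's quasi-likelihood test), and DESeq2 called it too (adjusted p = 0.0383). Thus 1 of 8 tested members was called, against 26.2% of all tested genes.

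The call of Slc2a8 was lost once GC content was taken into account. At 60.8% GC, its longest transcript was richer in G and C than 97.2% of the tested genes, whose median was 50.0%. With the GC trend removed from each library, the log2 fold change was -0.05 (adjusted p = 0.729 by edgeR's quasi-likelihood test), and with both trends removed it was -0.08 (adjusted p = 0.611). The gene stayed called without control library 1 (-0.44, adjusted p = 0.00075 by edgeR). The call was lost when any other library was left out, with adjusted p-values by edgeR of 0.104 without control library 2, 0.0672 without fructose library 1 and 0.0985 without fructose library 2, while the log2 fold change stayed between -0.44 and -0.24. Among all tested genes, the 3 whose log2 CPM, centred on each gene's mean, lay closest to that of Slc2a8 over the 4 libraries were Slc39a3, Acadvl and Atp5b, at Euclidean distances of 0.0212, 0.0213 and 0.0223. Slc39a3 encodes a zinc transporter, Acadvl an acyl-CoA dehydrogenase of mitochondrial fatty acid oxidation, and Atp5b a subunit of the mitochondrial ATP synthase. With only 4 libraries such closeness is common, and 241 genes lay within a distance of 0.1.

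Slc2a1 encodes GLUT1, the transporter of basal glucose uptake, and lies on chromosome 4 from 119108711 to 119137983 on the plus strand. It had 437 and 339 counts in control and 400 and 435 counts in fructose. Its level was 23.1 and 18.8 CPM in control and 17.7 and 17.8 CPM in fructose. The fructose libraries were nearly equal and lay just under control library 2, while control library 1 stood higher. The log2 fold change was -0.24 (standard error 0.13, 95% interval -0.53 to 0.05, adjusted p = 0.196 by edgeR's quasi-likelihood test), which did not pass the threshold. It was called without control library 2 (-0.38, adjusted p = 0.0424 by edgeR) and was -0.09 without control library 1, so that the choice between these libraries decided it. With both trends removed the value was -0.08.

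The sequences upstream of Slc2a1 and Slc2a8 are shown because these genes, the most abundant members after Slc2a4, hold different promoter elements. The 250 bases before each annotated start were taken from RefSeq (GRCm38.p6), where 7 of the 9 members had an entry, all but Slc2a3 and Slc2a4. These starts can differ from the gene spans used here. The window of Slc2a1 runs past the gene start at 119108711, and its last GC box lies inside that span. The window of Slc2a10 also reaches into its gene span, and that of Slc2a9 lies wholly inside its gene span. Capitals mark GC boxes (GGGCGG) and CCAAT boxes (CCAAT), searched on both strands.
Slc2a1, chr4:119108495-119108744, plus strand: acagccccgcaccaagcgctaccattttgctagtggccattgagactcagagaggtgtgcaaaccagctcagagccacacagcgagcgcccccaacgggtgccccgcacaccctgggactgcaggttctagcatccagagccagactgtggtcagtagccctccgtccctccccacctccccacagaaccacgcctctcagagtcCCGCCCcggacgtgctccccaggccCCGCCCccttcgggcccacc
Slc2a8, chr2:32982084-32982333, minus strand: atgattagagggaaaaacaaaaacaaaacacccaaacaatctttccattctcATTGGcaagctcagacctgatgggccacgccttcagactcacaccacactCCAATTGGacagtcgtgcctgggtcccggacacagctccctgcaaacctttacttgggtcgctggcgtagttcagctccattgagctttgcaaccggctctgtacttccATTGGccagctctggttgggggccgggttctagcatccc
The window of Slc2a1 held 2 GC boxes and no CCAAT box, and that of Slc2a8 held 4 CCAAT matches, of which 2 overlap on opposite strands, and no GC box. Of 32851 promoters of the same length, 32.7% held a GC box and 33.8% a CCAAT box. Among the 7 members with an entry, 4 held a GC box and 3 a CCAAT box. The E-box CACGTG, part of the element that the sugar sensor ChREBP binds, was in none of the 7 windows and in 6.02% of all promoters. These are matches of letters in a short window, and nothing about binding follows from them. CCAAT was added to the search after the promoters had been seen. The contrast between Slc2a1 and Slc2a8 was thus picked from these same sequences.

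**Figure D2:**
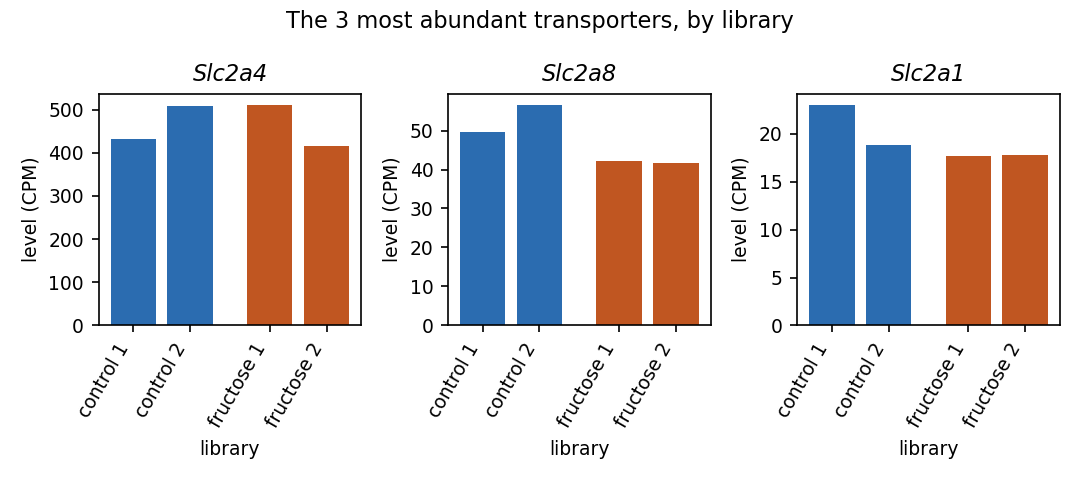
Level of Slc2a4, Slc2a8 and Slc2a1 in each library, as bars from 0 in CPM, with control in blue and fructose in orange. The 2 groups overlap for Slc2a4, and both fructose bars lie below both control bars for Slc2a8 and Slc2a1.

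The members of low level were not called, and their intervals were wide. Slc2a3, which encodes the high-affinity transporter GLUT3, had 133 and 181 counts in control and 173 and 211 in fructose, or 7.02 and 10.04 CPM and 7.65 and 8.61 CPM. Its fructose libraries lay between the control libraries. The log2 fold change of Slc2a3 was -0.07 (95% interval -0.48 to 0.35) and turned to 0.21 without control library 2. It was -0.33 with both trends removed (adjusted p = 0.308 by edgeR).

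Slc2a12 encodes GLUT12, and Slc2a10 encodes GLUT10, whose loss in humans causes arterial tortuosity syndrome. Slc2a12 had 68 and 76 counts in control and 105 and 98 in fructose, with a level of 3.59 and 4.21 CPM against 4.64 and 4.0 CPM and a log2 fold change of 0.15 (95% interval -0.35 to 0.64). It overlaps Tbpl1 on the opposite strand, and the sources do not say whether reads were counted by strand. Slc2a10 had 43 and 58 counts in control and 50 and 68 in fructose, with a log2 fold change of -0.13 (95% interval -0.76 to 0.50) that turned to 0.02 with both trends removed. The groups overlapped for both genes.

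Slc2a9 encodes the urate transporter GLUT9. It had 63 and 58 counts in control and 80 and 98 in fructose, or 3.32 and 3.22 CPM against 3.54 and 4.0 CPM. Both fructose libraries lay above both control libraries, but the log2 fold change of 0.21 did not pass the threshold (95% interval -0.31 to 0.72, adjusted p = 0.555 by edgeR's quasi-likelihood test). It had the same sign under all 15 alternatives tried, but these refit the same libraries and are no separate evidence.

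Slc2a13 encodes HMIT, the proton-coupled myo-inositol transporter, and had the largest fitted change of the members. It had 8 and 10 counts in control and 23 and 20 in fructose, or 0.422 and 0.555 CPM against 1.02 and 0.816 CPM. The groups did not overlap, and the log2 fold change was 0.90 (standard error 0.47, 95% interval -0.13 to 1.93, adjusted p = 0.178 by edgeR's quasi-likelihood test). At these counts the difference was not detectable at the threshold, and the gene passed the filter on low counts through its fructose libraries. Slc2a6, which encodes GLUT6, had 18 and 7 counts in control and 8 and 7 in fructose, did not pass the filter and was not tested. Its level was 0.950 and 0.388 CPM in control against 0.354 and 0.286 CPM in fructose, with control library 1 far above the other 3 libraries and control library 2 just above the fructose libraries.

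Over the list, 0 members were called higher and 1 lower by edgeR, and by DESeq2 as well, with the same counts at an unadjusted p-value under 0.05. By the study's own rule, an unadjusted p-value under 0.05 with a fold change above 1.3, neither tool called any of the 8 tested members, where edgeR called 23.8% of all tested genes, 17.6% higher and 6.18% lower. The groups did not overlap for 4 of the 8 tested members (Slc2a1, Slc2a8, Slc2a9 and Slc2a13), against 65.1% of all tested genes. The median log2 fold change was -0.04, against 0.0025 for all tested genes, with 3 members above 0 and 5 below. With both trends removed, 0 of 8 members were called in either direction (edgeR, also 0 at an unadjusted p-value under 0.05), against 8.81% of all tested genes.

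**Figure D3:**
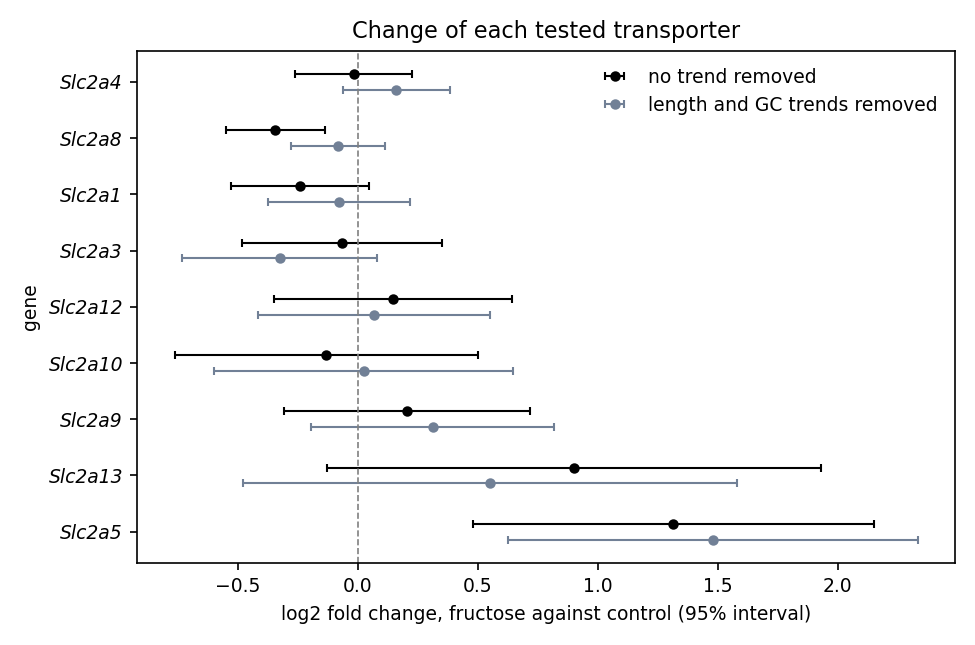
Log2 fold change of fructose against control with its 95% interval for the 8 tested members and, in the bottom row, Slc2a5, from edgeR without (black) and with (grey) removal of the length and GC trends. Among the members, the black interval of Slc2a8 lies wholly below 0, from -0.55 to -0.14, and with the trends removed every member's interval includes 0.

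Slc2a5, which encodes the fructose transporter GLUT5 and is not a member, had the largest log2 fold change of the tested Slc2a genes over all 4 libraries, with 39 and 61 counts in control and 218 and 96 in fructose (log2 fold change 1.31, standard error 0.38, adjusted p = 0.0259 by edgeR's quasi-likelihood test). Its value was 0.53 without fructose library 1, was then not called and lay below that of Slc2a13 (0.74). Slc2a7 had 0 counts in all 4 libraries. Slc2a2, the GLUT2 of liver and pancreatic islets, had 0 in control and 1 and 2 in fructose. Neither gene passed the filter on low counts, and neither was tested.

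The summed level of the family overlapped between the groups, while the shares of its leading members did not all overlap. Summed over the 9 members, the level was 149.6 and 173 CPM per kb in control and 169 and 142 CPM per kb in fructose. Slc2a4 made up 83.0% and 84.3% of this sum in control and 87.1% and 84.5% in fructose. Both fructose shares lay above both control shares, and the difference of 2.14 percentage points gave the smallest p-value that 2 against 2 libraries allow (p = 0.333, exact permutation test, two-sided). As a share of the members' counts, without the length scale, Slc2a4 was at 82.7% and 84.0% in control and 86.6% and 83.9% in fructose, which overlapped (exact permutation p = 0.667). Slc2a8 made up 10.3% and 10.2% in control and 7.76% and 9.15% in fructose, again without overlap (exact permutation p = 0.333). The shares of a library have a fixed total, so the differences of Slc2a4 and Slc2a8 are not separate results. The levels of 65.1% of all tested genes did not overlap either. The length and GC trends were not removed from the shares or from the sums given here. Slc2a1 made up 4.40% and 3.10% against 2.98% and 3.57%. The log2 ratio of Slc2a4 to Slc2a1 was 4.24 and 4.77 in control and 4.87 and 4.56 in fructose, which overlapped (exact permutation p = 0.667). Without Slc2a4, the other 8 members summed to 25.5 and 27.1 CPM per kb in control and 21.9 CPM per kb in each fructose library (exact permutation p = 0.333), and Slc2a8 held 59.2% to 65.1% of that sum in each library.

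Next, the genes that act on the glucose that enters or compete for the same cargo were examined. Hexokinases trap glucose in the cell by phosphorylating it. Of 7 genes for hexose phosphorylation, 5 were tested and 0 were called by edgeR or DESeq2, also at an unadjusted p-value under 0.05. Hk2, the hexokinase of insulin-responsive tissues, had a mean level of 318 CPM in control against 303 CPM with fructose, and a log2 fold change of -0.07 (95% interval -0.24 to 0.11). Hk1 had a log2 fold change of -0.01 (95% interval -0.23 to 0.20). Sodium-coupled glucose transporters were nearly absent, with 5 of 7 genes of that list at 0 counts in all libraries, and the sugar carrier Slc50a1 had a mean level of 23.6 CPM in control against 19.9 CPM with fructose (log2 fold change -0.25, not called). Of the 8 other transporters of inositol, urate and ascorbate, 3 were tested and 2 rose, where 15.5% of all tested genes were higher. Slc5a3, the sodium-coupled myo-inositol transporter, rose from 67 and 36 counts to 115 and 150 counts (log2 fold change 1.01, standard error 0.27, adjusted p = 0.0186 by edgeR), but was at 0.25 and not called with both trends removed. Slc23a2, a transporter of ascorbate, rose by 0.50 (adjusted p = 0.0157 by edgeR) and was at 0.26 and not called with both trends removed. Abcg2, which exports urate, was not called (0.06), and was called lower with both trends removed (-0.55, adjusted p = 0.0224 by edgeR).

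The machinery that holds and moves GLUT4 vesicles held many called genes. Of 32 such genes 31 were tested, of which 12 were higher and 3 lower in fructose (15 of 31, against 26.2% of all tested genes), with a median log2 fold change of 0.11. Lnpep, the aminopeptidase that travels with GLUT4 in its vesicles, rose by 0.81 (standard error 0.11, adjusted p = 0.00086 by edgeR), Cbl, a ubiquitin ligase, by 0.58 and Myo5a, a vesicle motor, by 1.55. With both trends removed, Myo5a was still called at 0.95, while Lnpep (-0.08, with its sign turned) and Cbl (0.04) were not. The 3 genes that fell, named after their values were seen, were Trip10 (-0.42), Vamp8 (-0.33) and Exoc7 (-0.26), and none of them was called with both trends removed. Exoc7 was also not called by DESeq2 (adjusted p = 0.0918) and lost its call in 9 of 15 alternatives. The vesicle sorting receptor Sort1 (0.02) and the motor Myo1c (-0.09), the most abundant genes of the list, were not called. With both trends removed, 5 of the 31 genes were higher and 1, Lrp1, lower, against 8.81% of all tested genes.

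For GLUT1, all 12 genes for binding, recycling and turnover were tested, of which 2 were higher and 1 lower, a share close to the 26.2% of all tested genes. Txnip, which promotes the removal of GLUT1 from the surface and is induced by glucose, was the most abundant, with a mean of 1737 CPM in control against 1414 CPM with fructose. It had 40094 and 24499 counts in control, against 31136 and 35529 with fructose, so that the groups overlapped after scaling, and it was not called (log2 fold change -0.30, 95% interval -0.64 to 0.04). Without control library 1 its value was 0.05, and without control library 2 it was -0.58 and called, so that the control library kept decided it. Stom, a membrane protein that binds GLUT1, was not called either (-0.17). The retromer subunits Vps35 and Vps26a, which return GLUT1 from endosomes to the surface, rose by 0.64 and 0.28, and the GLUT1-binding protein Gipc1 fell by 0.36 on the log2 scale (adjusted p = 0.0013, 0.0456 and 0.0146 by edgeR). With both trends removed none of these 3 was called, 1 other gene, Vps29, was called lower, and DESeq2 did not call Vps26a (adjusted p = 0.166).

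Among 15 transcription factors and coregulators listed here as tied to Slc2a1 or Slc2a4, 6 were higher and 3 lower (9 of 15, against 26.2% of all tested genes). With both trends removed, 5 were higher and 0 lower (against 8.81%). Hif1a, the hypoxia factor for which Slc2a1 is a classical target, rose from 10.6 to 24.1 CPM (log2 fold change 1.18, standard error 0.14, adjusted p = 0.00039 by edgeR), and the related and more abundant Epas1 by 0.33. Mef2a and Mef2c, which bind the Slc2a4 promoter in muscle, rose by 0.88 and 1.13, and the coactivator Ppargc1a by 1.16. Mlxipl, which encodes ChREBP, rose by 0.42. Hif1a, Mef2a, Mef2c, Ppargc1a and Mlxipl were still called with both trends removed, at 0.78, 0.43, 0.56, 0.62 and 0.59, and Epas1 was not. In that fit Mef2a and Mef2c lay just under the threshold (adjusted p = 0.0471 and 0.0484 by edgeR). The 3 genes that fell, named after their values were seen, were Myc (-0.65), Nr1h3 (-0.29) and Hdac5 (-0.29), none of them called with both trends removed.

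**Figure D4:**
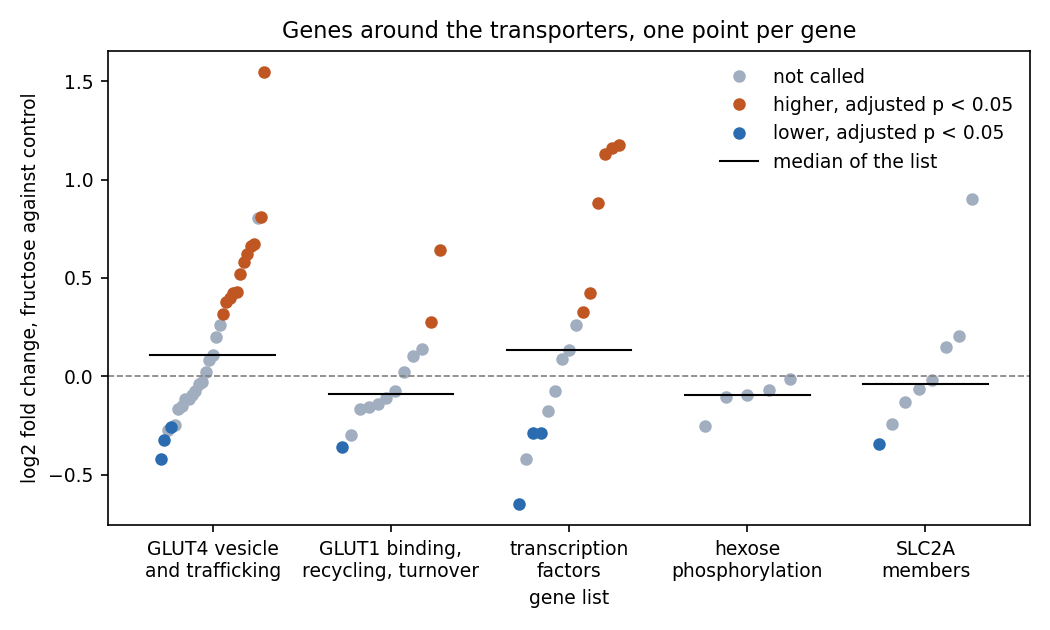
Log2 fold change of fructose against control for each tested gene of 4 lists around the transporters and of the SLC2A members, with coloured points for genes called by edgeR at an adjusted p-value under 0.05 and a line at each list's median. The GLUT4 trafficking list holds 12 called higher and 3 called lower, and the members hold 1 called lower, Slc2a8.

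In bulk tissue, fewer cells of a type and less RNA per cell cannot be told apart, and several cell types that also express these transporters can be present. The 10 skeletal muscle markers, of a tissue that also uses GLUT4, were all higher in fructose, where 15.5% of all tested genes were higher. Their summed level was 264 and 359 CPM in control and 843 and 632 CPM in fructose. With both trends removed 9 were still called, against 8.81% of all tested genes. The part of these markers in the level of Slc2a4, which was not called, was not tested. Of 7 tested erythroid markers, 5 were lower, where 10.7% of all tested genes were lower. Their summed level was 15294 to 19204 CPM in control and 11766 to 12141 CPM in fructose. Of 8 endothelial markers, 2 were lower and 0 higher, a share close to the 26.2% of all tested genes called. Their sum was 1729 to 1768 CPM in control and 1542 to 1619 CPM in fructose, with 6 log2 fold changes below 0 and 2 above. No erythroid marker was called with both trends removed, with a median log2 fold change of -0.06 in place of -0.52, and 1 endothelial marker was lower. Both cell types use GLUT1, and their part in the level of Slc2a1 was not tested. Of the 8 macrophage markers, 1 was higher and 2 lower (151 to 192 CPM summed), and of the 10 brown adipocyte markers 2 were higher and 2 lower. Over all tested genes, 15.5% were higher and 10.7% lower. By edgeR, 0 of 7 fibroblast markers (4333 to 5041 CPM) and 0 of 5 tested Schwann cell and nerve markers (87.4 to 101 CPM) were called. At an unadjusted p-value under 0.05 these counts were 1 and 0, and DESeq2 gave the same. Once both trends were removed, 0 macrophage markers were called, 1 fibroblast marker was lower, and 3 brown adipocyte markers were higher and 1 lower. Of all tested genes, 8.81% were then called in either direction.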

How the data were processed

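Gene counts of 4 RNA-seq libraries (2 control, 2 fructose) were analysed. The authors filtered reads with fastp, mapped them to mm10 with Bowtie2 2.0.0.5 and TopHat2 2.0.0, assembled transcripts with StringTie 2.2.0, merged them with Cuffmerge and deposited raw counts per gene. The counting tool, its use of strand and of multi-mapping reads were not given in the sources used here. Each library's own table matched its column in the joint table. Symbols and lengths came from GENCODE M21 (GRCm38), with 43 identifiers unmatched. Genes kept by filterByExpr were tested with edgeR 4.0.16 (TMM, quasi-likelihood, no covariate, R 4.3.3), two-sided, and adjusted over 12888 genes. DESeq2 1.42.0, other scalings and filters, removal of library-wise lowess trends (span 0.3), a replicate block and left-out libraries were alternatives. The tests were checked on simulated counts. The members and lists were chosen with earlier results of these data known. Named genes were all Slc2a genes, in each list the 4 called genes with the lowest p-values and the 2 with the highest level, and the 3 genes closest in profile to the called member. A gene that this rule names is not reported here. CCAAT was added as a motif after the promoters were seen. Totals were 18542897 to 23645147 counts.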

Additional observations from a re-analysis of the deposited data

How the results depend on the processing

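Of the 8 tested members, Slc2a9, Slc2a12 and Slc2a13 kept their direction and stayed without a call under every alternative that gave a value. The log2 fold change of Slc2a4 turned to 0.043 when scaled by library size only, 0.026 with the length trend removed, 0.16 with the GC trend removed, 0.16 with both removed and 0.16 with both removed and the replicate block, and was never called. That of Slc2a10 turned to 0.064 with the GC trend removed, 0.024 with both removed and 0.025 with both removed and the block. Slc2a8 lost its call with the length trend (-0.29, adjusted p = 0.0559 by edgeR), the GC trend (-0.055) or both trends removed (-0.082, and -0.081 with the block), so that 0 members were called lower in these 4 fits. With 1 library left out, where the lone library of a group is assumed to vary like the others, the ranges were -0.38 to -0.088 for Slc2a1, -0.31 to 0.21 for Slc2a3, -0.17 to 0.13 for Slc2a4, -0.44 to -0.24 for Slc2a8 and -0.37 to 0.14 for Slc2a10, with 0 to 1 members called lower, and the call without control replicate 2 was that of Slc2a1. Over the listed pathway genes, Slc2a5 included, 23 higher and 7 lower calls became 15 and 4 with the length trend, 3 lower with the GC trend, 11 and 3 with both and 6 and 2 with both and the block, and were 16 to 22 higher and 3 to 9 lower without 1 library. Over all genes, 2001 higher and 1379 lower calls became 2242 and 859 by library size only, 1231 and 683 with the length trend, 1331 and 724 with the GC trend, 714 and 422 with both and 463 and 269 with both and the block, and 1207 to 2225 higher and 485 to 1700 lower without 1 library. The replicate numbers are shared by label only, and the deviations of same-numbered libraries correlated at -0.0266 over 12888 genes. With the replicate block alone, Slc2a8 was at -0.34 (adjusted p = 0.0111 by edgeR) and no call of a member changed. With the median length of protein-coding transcripts, Slc2a4 made up 86.0% and 87.7% of the family in control and fructose, Slc2a8 6.55% and 5.37% and Slc2a1 4.0% in fructose, and 3 members took another rank. With the longest transcript, Slc2a8 made up 9.73% in control and 2 members took another rank. With at least 10 counts in every library, Slc2a13 gave no value. The low counts of Slc2a6, Slc2a10 and Slc2a13 limit what could be seen of them.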
